A study of Mus musculus with 12 samples.

Results

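The genes described here drive the G2 phase and mitosis of the cell cycle. They form a list of 34 names, from CDK1 and its cyclins to the proteins that cut the daughter cells apart. For each, the probe set carrying that symbol alone and the highest mean over all 12 arrays was used. That gave 33 measured members of 19938 measured genes. Ccnb1 was not analysed here, and Top2a was the 1 member with more than 1 probe set.

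The data came from 1-colour Affymetrix gene arrays of mouse cells, with 4 groups of 3 arrays. Day 0 cells were undifferentiated induced pluripotent stem cells (iPSCs), reprogrammed cells that can form the tissues of the embryo, and their arrays are also marked piPS. The other groups were made from iPSCs and taken at day 4. They were spontaneously differentiated cells, cells from an optimized cardiac differentiation (marked EB + ck, which the labels do not spell out), and a population enriched by flow cytometry for cardiac progenitor cells (CPCs) with FLK1 and PDGFRα on their surface (FLK1+/PDGFRα+). The labels give no genotype, no agent of the cardiac differentiation, and neither the line nor the number of clones of the iPSCs. They do not say that the replicates were separate cultures, so the p-values reflect the spread among these arrays alone, and that spread may be technical. The title of the series asks about Lpar4, a receptor for lysophosphatidic acid, in cardiac differentiation. The comparisons below ask how the mitotic genes stood in undifferentiated cells, in both kinds of day 4 culture and in the sorted cells.

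Dividing cells make most mitotic proteins anew in each cycle. Their genes are silenced in G1 by the MuvB core with pocket proteins and switched on late in the cycle when MuvB binds B-MYB and then FOXM1. MuvB recognises a short promoter element, the CHR, and NF-Y binds CCAAT boxes nearby. Pluripotent stem cells cycle fast with a short G1, so a large share of them is in S, G2 or M at any time.

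Values are log2 signals, and differences are log2 differences with day 0 subtracted unless stated. A member passed, and is said to have risen or fallen, at an adjusted p under 0.05 in limma's moderated test, with Benjamini-Hochberg adjustment over 19938 genes. All 3 comparisons with day 0 use the same day 0 arrays, so their results are not independent.

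The regulatory letters of these genes were read from RefSeq promoter windows on GRCm38.p6, each running from 250 bases before to 50 bases after a gene's start. Windows were found for 27 of the 33 members, 29 windows in all because Ect2 and Prc1 have 2 overlapping windows each. Not matched were Ccna2, Cdc25c, Aurkb, Kif20a, Tpx2 and Incenp. The letters searched were TTTGAA, which is a CHR core, and those of the CCAAT box, each on both strands. Of the members' 29 windows, 22 (75.9%) held TTTGAA, 24 (82.8%) held CCAAT and 20 (69.0%) held both. Among all 32851 windows of the table the shares were 17.9%, 37.4% and 6.95%. Among the 19177 windows of genes on these arrays they were 14.8%, 37.4% and 5.85%. The median GC content was 59.0% in members and 57.3% in the windows of genes on the arrays. The shares were 54.4%, 64.9% and 40.4% in 57 windows of other G2 and mitosis genes, and 10.5%, 57.9% and 7.89% in 38 windows of genes of the G1/S transition and DNA replication. The 200 bases before the start are given here to show how these letters sit before the start of such genes. The 6 members were taken in order of their variation between groups among those with TTTGAA wholly upstream of the start, so all 6 hold it by choice. Ect2, Espl1, Top2a and Kif2c were passed over because their stretch lies inside the annotated gene. Capitals mark the CHR letters TTTGAA (on the other strand TTCAAA) and the box letters CCAAT (on the other strand ATTGG), and each stretch reads 5′ to 3′ on the gene's strand. Ccnb2 lies at chr9:70421555-70421754 (minus strand), Ccnf at chr17:24251410-24251609 (minus strand), Ube2c at chr2:164769729-164769928 (plus strand), Kif11 at chr19:37376182-37376381 (plus strand), Cdc20 at chr4:118437344-118437543 (minus strand) and Cdk1 at chr10:69352913-69353112 (minus strand). All 6 stretches lie upstream of the annotated gene.
Ccnb2: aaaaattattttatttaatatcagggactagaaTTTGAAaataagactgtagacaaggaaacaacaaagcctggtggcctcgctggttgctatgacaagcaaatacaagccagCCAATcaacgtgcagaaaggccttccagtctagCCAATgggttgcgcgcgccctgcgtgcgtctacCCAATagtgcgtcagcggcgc
Ccnf: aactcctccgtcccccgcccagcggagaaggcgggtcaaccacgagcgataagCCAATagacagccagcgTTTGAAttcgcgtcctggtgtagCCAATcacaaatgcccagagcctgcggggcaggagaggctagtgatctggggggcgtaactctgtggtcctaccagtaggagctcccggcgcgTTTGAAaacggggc
Ube2c: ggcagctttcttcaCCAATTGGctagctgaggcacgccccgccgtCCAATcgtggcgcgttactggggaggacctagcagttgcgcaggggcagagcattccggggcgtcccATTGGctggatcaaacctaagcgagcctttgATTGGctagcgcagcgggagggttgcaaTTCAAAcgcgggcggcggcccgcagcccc
Kif11: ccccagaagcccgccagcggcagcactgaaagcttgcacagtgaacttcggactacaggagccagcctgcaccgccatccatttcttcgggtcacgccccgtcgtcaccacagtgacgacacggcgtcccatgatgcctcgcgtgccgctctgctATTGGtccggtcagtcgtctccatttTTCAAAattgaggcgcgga
Cdc20: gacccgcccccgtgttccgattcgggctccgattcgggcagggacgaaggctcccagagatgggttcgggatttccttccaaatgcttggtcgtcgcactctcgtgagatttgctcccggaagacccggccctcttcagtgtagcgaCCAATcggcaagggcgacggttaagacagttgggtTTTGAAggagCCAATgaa
Cdk1: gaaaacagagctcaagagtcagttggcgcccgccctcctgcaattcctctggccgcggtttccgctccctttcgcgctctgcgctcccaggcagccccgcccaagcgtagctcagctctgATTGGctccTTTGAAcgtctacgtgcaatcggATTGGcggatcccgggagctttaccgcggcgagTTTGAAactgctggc

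The first 2 of these genes fell in at least 1 comparison below, while Ube2c, Kif11, Cdc20 and Cdk1 did not pass in any. Counted back from the start as negative positions, Cdk1 held TTTGAA at -71 and -15 and Ccnf at -130 and -14. Ccnb2 held it in the printed stretch at -167, with the CCAAT box at -87, -54 and -21. The window of Ccnb2 held TTTGAA again just past the start, at 5. Kif11 and Cdc20 held TTTGAA close to the start, at -19 and -18. Ect2 held TTTGAA 2 times in each of its windows, and Anln held it 2 times with no CCAAT. In Ube2c, 2 matches to the CCAAT box on opposite strands share letters (-186 and -183). A match describes letters, not a bound site.

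**Figure D1:**
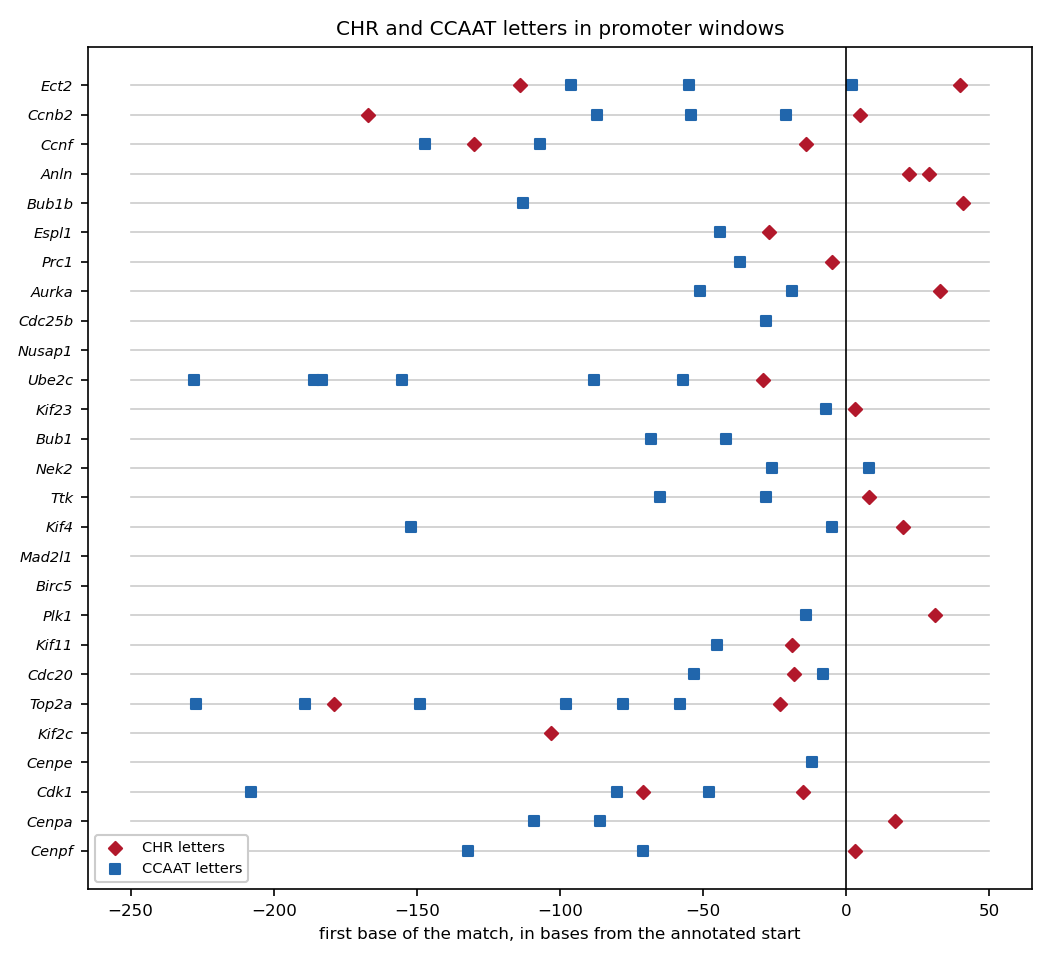
Matches to TTTGAA and CCAAT in the promoter windows of members, by distance in bases from the gene's start (x axis), 1 row per gene (the more upstream window of Ect2 and Prc1), with genes ordered from most to least variation between the 4 groups. Red diamonds are TTTGAA and blue squares the CCAAT box. Both kinds occur from the top row to the bottom one, and Nusap1, Mad2l1 and Birc5 hold neither.

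Before the members were compared, the labels were checked with marker genes. Pou5f1, a core pluripotency factor, measured 11.24, 11.31 and 11.57 at day 0 and from 9.80 to 11.37 in the day 4 arrays. Nanog, another such factor, measured 11.39, 11.63 and 11.23 at day 0 and 9.56 to 11.05 at day 4. Kdr, which encodes FLK1, measured 5.50, 5.54 and 5.78 at day 0 and 9.83, 10.71 and 10.27 in spontaneous cells. In the cardiac arrays it measured 5.42, 10.81 and 9.01, and in libraries labelled sorted 10.23, 6.25 and 6.03. Pdgfra measured 11.13, 8.47 and 8.29 in libraries labelled sorted, against 8.75, 9.14 and 8.81 at day 0. The libraries labelled sorted replicates 2 and 3 therefore went against their label in the RNA of both gate markers, and cardiac replicate 1 stood near day 0 in Kdr. Other streak and mesoderm markers were mixed in these libraries, given here in that order. Eomes measured 10.34, 8.60 and 8.48 (6.97, 6.10 and 6.29 at day 0). Mixl1 measured 10.35, 7.52 and 6.22 (5.97, 5.86 and 6.10 at day 0), and Gsc 8.96, 7.60 and 7.01 (7.17, 7.19 and 7.02 at day 0). Mesp1 and Tbx6 stood near day 0 in each. Results named below whose calls changed without these libraries are given with the values found then. In bulk RNA, a lower signal from fewer cells in mitosis and one from less RNA in each such cell cannot be told apart.

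The mitotic genes were measured at high levels in all 4 groups, and most of them passed in no comparison. Every one of the 33 members lay above the median gene signal in each group. Against day 0, 4 members fell in spontaneous cells, 2 in the cardiac group and 5 in libraries labelled sorted, and 0 rose in any of them. Ect2 and Ccnb2 fell in all 3 day 4 groups, and Anln, Espl1, Ccnf, Tpx2 and Bub1b in 1 each. Members as central as Cdk1, Ccna2, Plk1, Aurkb, Top2a and Cenpa passed in none.

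Those counts stand against all genes as follows. In spontaneous cells 12.1% of members fell, where 4.29% of all genes fell and 5.46% rose. In cardiac cultures 6.06% of members fell, beside 2.8% of all genes lower and 3.37% higher. In the libraries labelled sorted 15.2% of members fell, beside 3.31% of all genes lower and 1.81% higher. No member both passed and reached a log2 difference of 1 in any comparison, as 3.57%, 2.2% and 2.11% of all genes did in the comparisons with day 0. The moderated F test over all 4 groups passed for 2 of 33 members, Ect2 (F = 15.86, adjusted p = 0.00814) and Ccnb2 (F = 13.36, adjusted p = 0.0136), where 5.86% of all genes passed. The members' counts rest in part on single arrays: with 1 array left out they ran from 2 to 5, from 0 to 3 and from 1 to 6 in these comparisons. Without day 0 replicate 1 the cardiac count was 0, and without day 0 replicate 1 or 3 the sorted count was 1.

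Small shifts in the same direction were common among the members that did not pass. The members' median difference was -0.18 for spontaneous cells, -0.12 for cardiac cultures and -0.31 for libraries labelled sorted, where the medians of all genes were -0.03, -0.05 and 0.03. The number of members with a difference below 0 was 25, 28 and 31 of 33 in the same order, or 75.8%, 84.8% and 93.9%. Among all genes 56.2%, 58.2% and 45.1% were below 0. The shares were 66.1%, 64.4% and 78% in 59 other G2 and mitosis genes. In 39 genes of the G1/S transition and DNA replication they were 61.5%, 76.9% and 66.7%. The cardiac median of these 39 genes, -0.13, was close to that of the members. In spontaneous cells, 15 members had all 3 arrays below all day 0 arrays and 2 had all 3 above, 45.5% lower beside a background of 21.6% lower and 19.4% higher. In cardiac cultures 8 members lay fully below and 0 fully above (24.2% lower, background 16.2% lower and 12.8% higher), and in libraries labelled sorted 17 and 0 (51.5% lower, background 11.3% lower and 10.2% higher). In 7 members all 9 day 4 arrays lay below all 3 day 0 arrays (21.2%) and in 0 above, beside a background of 5.15% below and 4.65% above. The 7 were Ccnb2, Cdc25b, Tpx2, Bub1b, Espl1, Anln and Ect2.

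The intervals show how large a change could have been missed. The 95% interval of the difference lay within 1 log2 unit of 0 in 31 of 33 members in each comparison with day 0, the exceptions being Anln and Ect2. It lay within 0.5 of 0 in 16, 23 and 10 members for spontaneous, cardiac and sorted arrays.

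**Figure D2:**
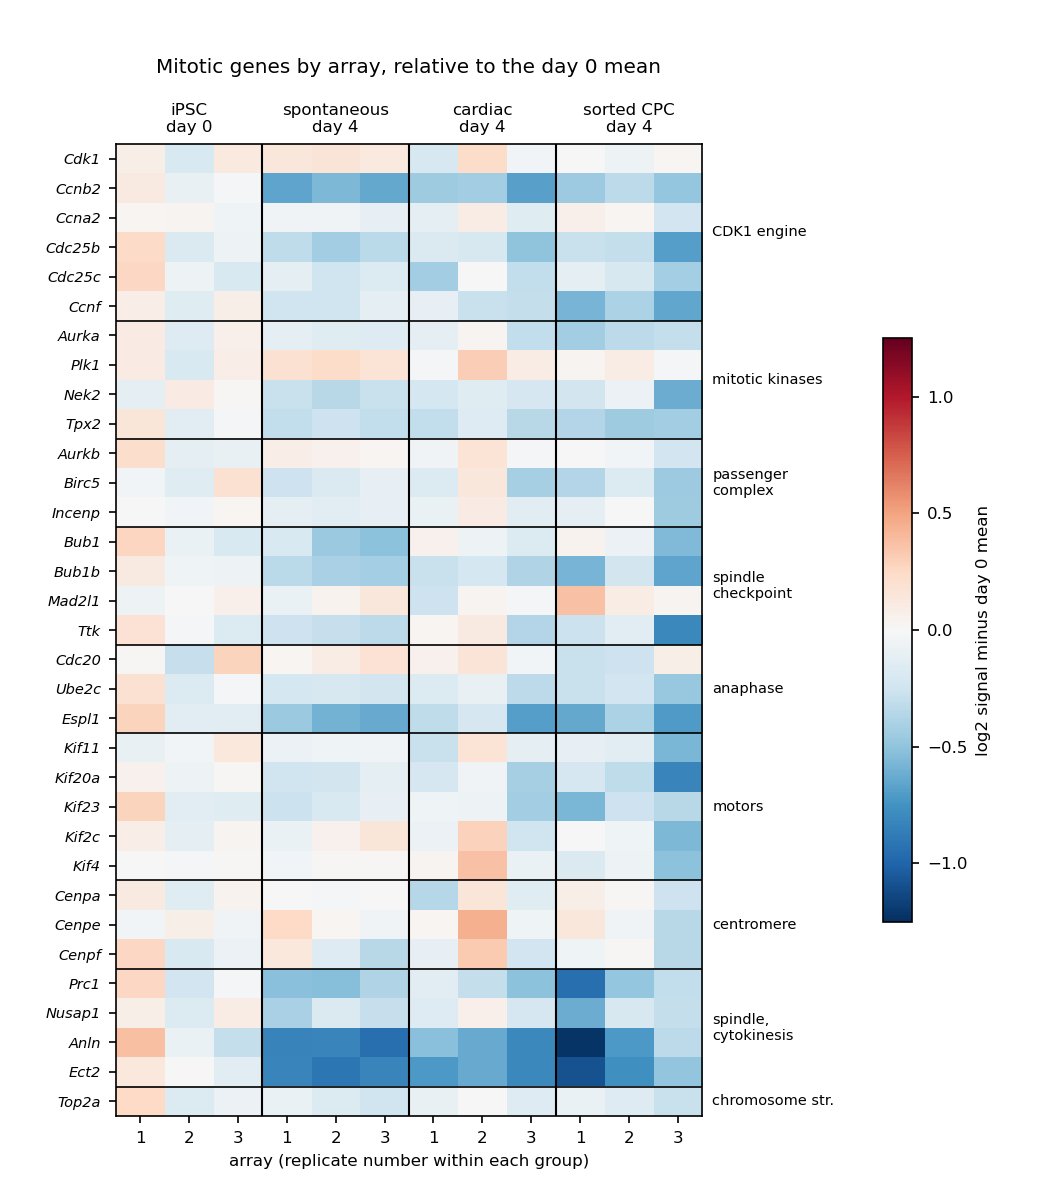
Each measured member (row, grouped by role) on each of the 12 arrays (column, by group and replicate), as log2 signal minus the member's mean over the 3 day 0 arrays. Ect2, Anln and Ccnb2 are low in every day 4 column, whereas Cdk1 and Ccna2 are pale throughout.

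The group of spindle and cytokinesis proteins had the lowest medians of the role groups in all 3 comparisons, with -0.66 in spontaneous, -0.49 in cardiac and -0.67 in sorted arrays over its 4 members. Ect2 encodes the exchange factor that activates RhoA at the division plane. At day 0 it measured 10.81, 10.68 and 10.54. It measured 9.85, 9.77 and 9.85 in spontaneous cells, 9.96, 10.05 and 9.87 in cardiac cultures, and 9.58, 9.91 and 10.18 in libraries labelled sorted. All 9 day 4 values of Ect2 lay below all day 0 values, and the sorted arrays spread most. It fell in each group, with differences of -0.85 ± 0.14 (SE) in spontaneous cells (1.81-fold, adjusted p = 0.00323, 95% interval -1.16 to -0.55), -0.71 in cardiac cultures (1.64-fold, adjusted p = 0.0108) and -0.78 in libraries labelled sorted (1.72-fold, adjusted p = 0.00658). The Ect2 falls in spontaneous and sorted arrays passed with any 1 array left out, and the cardiac fall passed in all but the fit without day 0 replicate 1 (adjusted p = 0.0521). With the library labelled sorted replicate 1 as the only sorted array, assumed to vary like the other groups, the Ect2 difference was -1.09 (adjusted p = 0.00201). Without cardiac replicate 1 the cardiac difference was -0.71 (adjusted p = 0.0201).

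Anln encodes anillin, the scaffold that ties actin, myosin and septins together in the cleavage furrow. It measured 10.52, 10.06 and 9.84 at day 0, 9.31, 9.32 and 9.19 in spontaneous cells, 9.62, 9.51 and 9.33 in cardiac cultures, and 8.92, 9.42 and 9.81 in libraries labelled sorted. Every day 4 array lay below every day 0 array, with the library labelled sorted replicate 3 (9.81) next to the lowest day 0 value (9.84). Anln fell by 0.87 ± 0.21 (SE) in spontaneous cells (1.82-fold, adjusted p = 0.0214). It did not pass in cardiac cultures (-0.66, adjusted p = 0.0857) or in libraries labelled sorted (-0.76, adjusted p = 0.0583). The spontaneous call was lost without day 0 replicate 1 or 2 or any 1 spontaneous array, with adjusted p up to 0.0982. Anln also passed, without the libraries labelled sorted replicates 2 and 3, in cardiac cultures (-0.66, adjusted p = 0.0246) and in sorted replicate 1 alone (-1.22, adjusted p = 0.00895). The other members of the group bundle or bind microtubules. Prc1, which crosslinks the central spindle, differed by -0.48, -0.32 and -0.58 (adjusted p = 0.112, 0.301 and 0.0835), and Nusap1, which binds spindle microtubules around chromosomes, by -0.29, -0.10 and -0.38. In that fit without sorted replicates 2 and 3, Prc1 passed in spontaneous cells (-0.48, adjusted p = 0.0476) and in sorted replicate 1 alone (-0.94, adjusted p = 0.0186).

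Cep55, a gene of the same process outside the 34, had larger differences. Its product recruits the abscission machinery to the midbody. Cep55 measured 9.19, 9.05 and 8.75 at day 0 and 7.33, 7.20 and 7.56 in spontaneous cells. It measured 8.09, 7.51 and 7.46 in cardiac cultures and 6.34, 7.85 and 7.50 in libraries labelled sorted, so that no day 4 array reached day 0. It fell in all 3 groups, by differences of -1.63 ± 0.31 (SE, 3.1-fold, adjusted p = 0.00647), -1.31 (2.48-fold, adjusted p = 0.0269) and -1.77 (3.4-fold, adjusted p = 0.00562). The cardiac fall of Cep55 was lost without day 0 replicate 1 or 2 or cardiac replicate 2 or 3 (adjusted p up to 0.1). With sorted replicate 1 as the only sorted array the Cep55 difference was -2.65 (adjusted p = 0.000586).

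**Figure D3:**
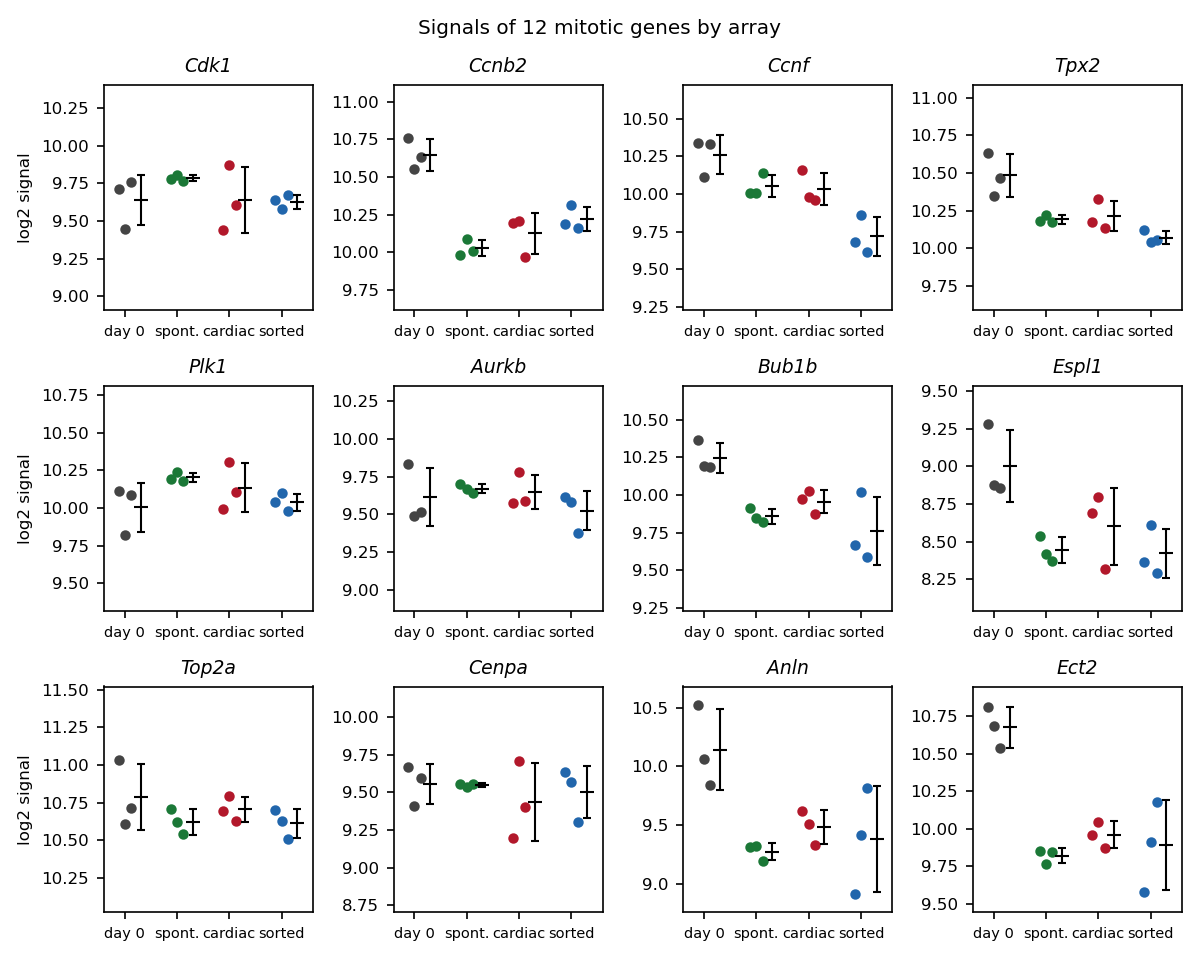
Log2 signal (y axis) on each array for 12 members, by group, each point 1 array and each bar the mean ± SD of 3 arrays. The signal axis differs between panels and does not start at 0. In Ect2 and Ccnb2 all 9 day 4 points lie below the 3 day 0 points, and in Ccnf the libraries labelled sorted are the lowest.

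Among CDK1 and its partners, 1 cyclin fell in every day 4 group while the kinase itself did not pass. Ccnb2 encodes cyclin B2, an activating subunit of CDK1. It measured 10.76, 10.55 and 10.63 at day 0, 9.98, 10.09 and 10.01 in spontaneous cells, 10.20, 10.21 and 9.97 in cardiac cultures and 10.19, 10.32 and 10.16 in libraries labelled sorted. The highest day 4 value of Ccnb2 was below the lowest day 0 value. It fell in each group, with differences of -0.62 ± 0.11 (SE) in spontaneous cells (1.54-fold, adjusted p = 0.00381), -0.52 in cardiac cultures (1.44-fold, adjusted p = 0.0128) and -0.42 in libraries labelled sorted (1.34-fold, adjusted p = 0.0351). The spontaneous fall passed with any 1 array left out. The cardiac fall was lost without day 0 replicate 1 (adjusted p = 0.0577) or cardiac replicate 3 (0.0548), and the sorted fall without any 1 of the day 0 or spontaneous arrays or without sorted replicate 1 (0.0547 to 0.145). Without the libraries labelled sorted replicates 2 and 3 the sorted difference was -0.46 (adjusted p = 0.0755), and without cardiac replicate 1 the cardiac one was -0.56 (adjusted p = 0.0166).

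Cdk1, the kinase that drives entry into mitosis, measured 9.71, 9.45 and 9.76 at day 0 and 9.78, 9.80 and 9.77 in spontaneous cells. It measured 9.44, 9.87 and 9.60 in cardiac cultures and 9.64, 9.58 and 9.67 in libraries labelled sorted. The spontaneous Cdk1 values lay just above all day 0 values, and the other groups overlapped day 0. The differences were 0.14 (adjusted p = 0.559, 95% interval -0.14 to 0.42), 0.00 and -0.01, with intervals for the last pair of -0.28 to 0.28 and -0.29 to 0.27. Ccna2, the cyclin of S phase and early mitosis, differed by -0.07, -0.06 and -0.05, and its arrays overlapped day 0 in each group.

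Ccnf encodes cyclin F, which does not activate CDK1 but serves as the substrate adaptor of a ubiquitin ligase in G2. It measured 10.34, 10.11 and 10.33 at day 0, 10.01, 10.01 and 10.14 in spontaneous cells, 10.16, 9.98 and 9.96 in cardiac cultures and 9.68, 9.86 and 9.61 in libraries labelled sorted. The sorted values of Ccnf were the lowest of all groups, with no overlap with any other array. It fell by 0.54 ± 0.11 (SE) in libraries labelled sorted (1.46-fold, adjusted p = 0.0153), and differed by -0.21 and -0.23 in spontaneous and cardiac arrays (adjusted p = 0.294 and 0.258). The sorted fall was lost without day 0 replicate 1 (adjusted p = 0.0714) or replicate 3 (0.0586), and passed with sorted replicate 1 alone (-0.58, adjusted p = 0.0362). The phosphatase genes Cdc25b and Cdc25c, whose products remove the inhibitory phosphates of CDK1, did not pass. Cdc25b differed by -0.36, -0.30 and -0.42, with all day 4 arrays below day 0, and Cdc25c by -0.18, -0.25 and -0.24.

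Among the mitotic kinase genes Aurka, Plk1 and Nek2 and the activator gene Tpx2, 1 of 4 passed, and in 1 comparison. Tpx2, the microtubule factor that activates Aurora A on the spindle, measured 10.63, 10.35 and 10.47 at day 0, 10.18, 10.22 and 10.17 in spontaneous cells, 10.17, 10.32 and 10.14 in cardiac cultures and 10.12, 10.04 and 10.05 in libraries labelled sorted. All day 4 values of Tpx2 were below day 0, cardiac replicate 2 narrowly. It fell by 0.41 ± 0.10 (SE) in libraries labelled sorted (1.33-fold, adjusted p = 0.0361), a call lost with any 1 of 8 of the 12 arrays left out (day 0 replicates 1 and 3, all spontaneous replicates, cardiac replicate 3, sorted replicates 1 and 2, adjusted p up to 0.155). Without the libraries labelled sorted replicates 2 and 3 it was -0.36 (adjusted p = 0.148). In all, the Tpx2 call was lost in 14 of 25 alternatives.

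Plk1 encodes Polo-like kinase 1, which acts from mitotic entry to cytokinesis. It measured 10.11, 9.82 and 10.09 at day 0, 10.19, 10.24 and 10.18 in spontaneous cells, 9.99, 10.31 and 10.10 in cardiac cultures and 10.04, 10.10 and 9.98 in libraries labelled sorted. The spontaneous values lay above day 0 and the others overlapped it, with differences of 0.20 (adjusted p = 0.34, 95% interval -0.05 to 0.45), 0.13 and 0.03. Aurka, the centrosome kinase Aurora A, differed by -0.14, -0.13 and -0.35, and Nek2, a kinase of centrosome separation, by -0.30, -0.19 and -0.31. Neither passed.

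The chromosomal passenger complex, which corrects faulty chromosome attachment and guides cytokinesis, had 0 of 3 members past the test in any comparison. Aurkb, its kinase Aurora B, measured 9.84, 9.49 and 9.52 at day 0, 9.70, 9.67 and 9.64 in spontaneous cells, 9.57, 9.78 and 9.59 in cardiac cultures and 9.62, 9.58 and 9.37 in libraries labelled sorted. Each day 4 group of Aurkb overlapped day 0, and the differences were 0.06, 0.03 and -0.09 (adjusted p = 0.837, 0.883 and 0.774). Birc5, the subunit survivin, measured 8.37, 8.26 and 8.59 at day 0, 8.15, 8.23 and 8.30 in spontaneous cells, 8.23, 8.54 and 7.99 in cardiac cultures and 8.04, 8.24 and 7.95 in libraries labelled sorted. Its sorted values were below day 0, with a difference of -0.33 (adjusted p = 0.276), and its other groups overlapped it. Incenp, the scaffold of the complex, differed by -0.12, -0.04 and -0.19.

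The spindle checkpoint holds cells in metaphase until all chromosomes are attached. Bub1b, which encodes the checkpoint inhibitor BUBR1, measured 10.36, 10.19 and 10.19 at day 0, 9.91, 9.84 and 9.82 in spontaneous cells, 9.97, 10.02 and 9.87 in cardiac cultures and 9.67, 10.02 and 9.59 in libraries labelled sorted. No day 4 array of Bub1b reached day 0. It fell by 0.49 ± 0.12 (SE) in libraries labelled sorted (1.4-fold, adjusted p = 0.0374), and differed by -0.39 in spontaneous cells (adjusted p = 0.0655) and -0.29 in cardiac cultures (adjusted p = 0.187). The sorted call was lost with any 1 of 9 of the 12 arrays left out (adjusted p up to 0.151), the exceptions being cardiac replicates 1 and 2 and sorted replicate 2. With sorted replicate 1 alone it was -0.58 (adjusted p = 0.0263), and in that fit Bub1b also passed in spontaneous cells (-0.39, adjusted p = 0.0196). Bub1, a kinase at the kinetochore, differed by -0.39, -0.06 and -0.19, and Ttk, the kinase that starts checkpoint signalling, by -0.29, -0.08 and -0.40. Mad2l1, which encodes MAD2, differed by 0.03, -0.08 and 0.17, and none of these passed.

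Anaphase begins when the ubiquitin ligase APC/C releases separase. Espl1, which encodes separase, the protease that opens the cohesin ring, measured 9.28, 8.87 and 8.86 at day 0, 8.54, 8.42 and 8.37 in spontaneous cells, 8.69, 8.80 and 8.31 in cardiac cultures and 8.36, 8.61 and 8.29 in libraries labelled sorted. All day 4 values were below day 0, with cardiac replicate 2 the nearest to it. Espl1 fell by 0.56 ± 0.16 (SE) in spontaneous cells (1.48-fold, adjusted p = 0.0471). Its cardiac difference was -0.40 (adjusted p = 0.17) and its sorted difference -0.58 (adjusted p = 0.0603), and neither passed. This Espl1 result did not hold when any 1 of the 6 compared arrays was left out (adjusted p = 0.0607 to 0.193). Cdc20, the activator of APC/C in metaphase, differed by 0.10, 0.06 and -0.15, and Ube2c, the ubiquitin-conjugating enzyme of APC/C, by -0.22, -0.20 and -0.33, and neither passed.

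The mitotic kinesins and the centromere proteins had 0 of 8 members past the test. Kif20a, a kinesin of the central spindle, measured 9.84, 9.73 and 9.80 at day 0, 9.54, 9.56 and 9.68 in spontaneous cells, 9.58, 9.74 and 9.37 in cardiac cultures and 9.58, 9.48 and 8.96 in libraries labelled sorted. Its spontaneous and sorted arrays lay below day 0, and sorted replicate 3 was far the lowest. The differences were -0.20, -0.22 and -0.45 (adjusted p = 0.503, 0.409 and 0.128). The other kinesins are Kif11, which pushes the spindle poles apart, Kif23, which works with RhoA activators in the midzone, Kif2c, which depolymerises microtubules, and the chromokinesin Kif4. Their differences ran from -0.19 (Kif23) to 0.10 (Kif4) in spontaneous and cardiac arrays and from -0.40 (Kif23) to -0.21 (Kif2c) in libraries labelled sorted.

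Cenpa, the histone variant that marks centromeres, measured 9.66, 9.41 and 9.60 at day 0, 9.55, 9.53 and 9.56 in spontaneous cells, 9.20, 9.71 and 9.40 in cardiac cultures and 9.63, 9.57 and 9.30 in libraries labelled sorted. Cenpe, a kinetochore motor, measured 8.30, 8.41 and 8.29 at day 0, 8.58, 8.36 and 8.29 in spontaneous cells, 8.36, 8.78 and 8.27 in cardiac cultures and 8.47, 8.29 and 7.99 in libraries labelled sorted. Both genes overlapped day 0 in every group. Their differences were -0.01, -0.12 and -0.06 for Cenpa and 0.08, 0.14 and -0.08 for Cenpe, and Cenpf, a large kinetochore protein of G2, differed by -0.12, -0.01 and -0.13. Top2a, the topoisomerase that untangles sister chromatids, measured 11.03, 10.61 and 10.72 at day 0, 10.71, 10.62 and 10.54 in spontaneous cells, 10.69, 10.79 and 10.63 in cardiac cultures and 10.70, 10.63 and 10.51 in libraries labelled sorted. It overlapped day 0 throughout (-0.16, -0.08 and -0.17, adjusted p = 0.436, 0.688 and 0.467).

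Between the day 4 groups 0 of 33 members passed in any comparison. Among all genes 0%, 0% and 0.00502% passed when cardiac arrays were set against spontaneous ones and the sorted arrays against each of those groups in the order cardiac, spontaneous. By limma at an unadjusted p under 0.05, 0 members were higher and 0 lower in cardiac than in spontaneous cells (2.09% and 1.64% of all genes). In sorted against cardiac arrays 0 were higher and 2 lower (10.1% and 5.66%), and in sorted against spontaneous arrays 0 were higher and 1 lower (5.92% and 5.66%). The 95% interval of every member lay within 1 log2 unit of 0 in these comparisons. The median member difference was 0.03 for cardiac minus spontaneous, -0.14 for sorted minus cardiac and -0.10 for sorted minus spontaneous arrays. Of 33 members, 28 were lower in sorted than in cardiac arrays (84.8%, all genes 46%) and 27 lower than in spontaneous cells (81.8%, all genes 45.5%). These shares were not counted without the libraries at odds with their labels. One of those, sorted replicate 3, had a median member difference from day 0 of -0.43, against -0.23 and -0.17 in sorted replicates 1 and 2. Ccnf had the smallest adjusted p in both sorted comparisons, with -0.32 against cardiac arrays (adjusted p = 0.281, 95% interval -0.56 to -0.07) and -0.33 against spontaneous cells (adjusted p = 0.345). Kif4 differed most between sorted and cardiac arrays (-0.36, adjusted p = 0.297) and Bub1 between cardiac and spontaneous arrays (0.33, adjusted p = 0.999).

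**Figure D4:**
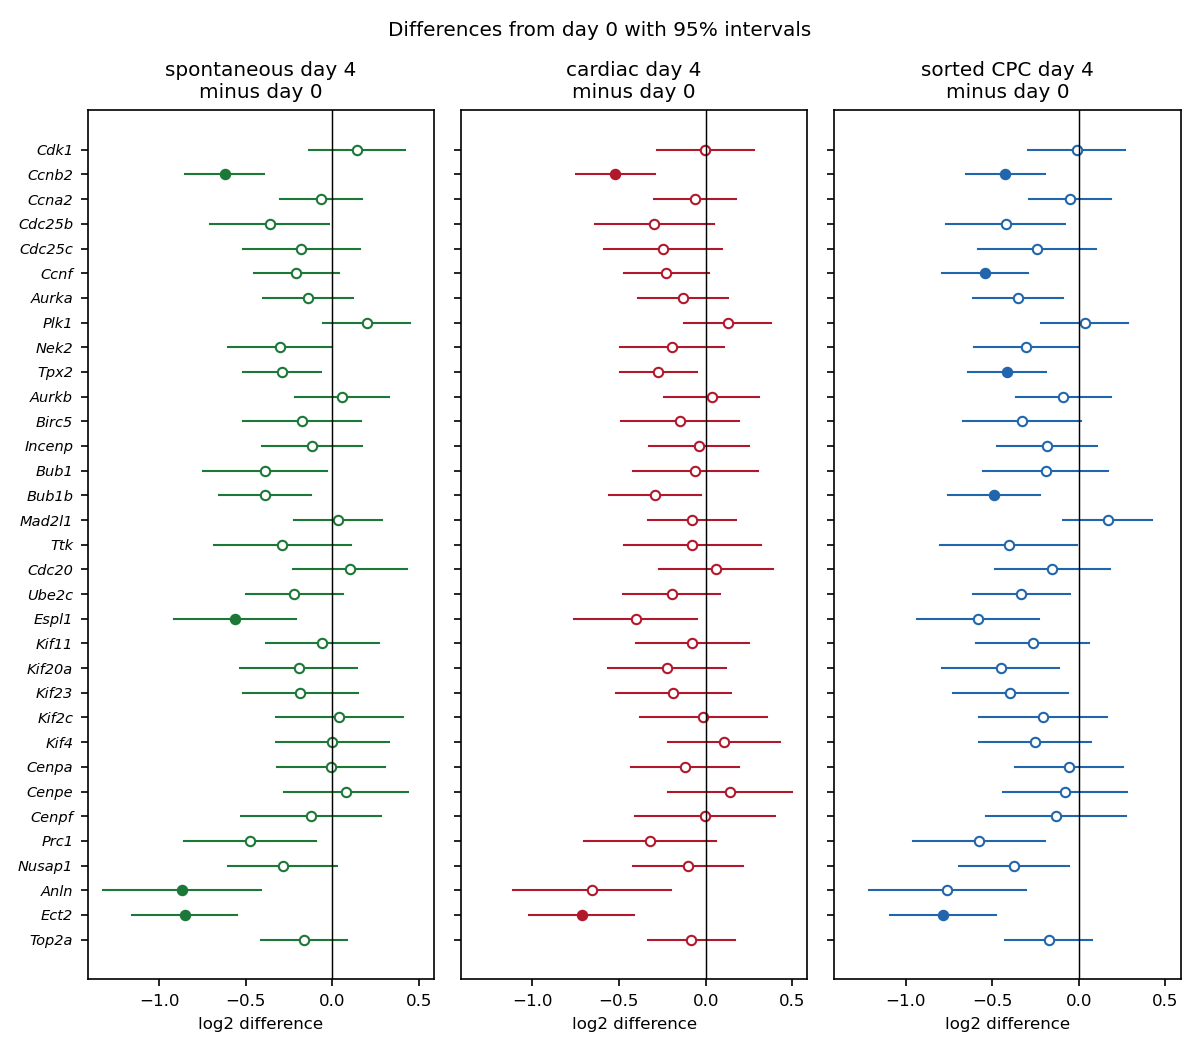
Log2 difference from day 0 (x axis) with its 95% interval for every measured member (rows, by role) in spontaneous, cardiac and sorted arrays, with filled points for members that passed. The intervals of Ect2 lie wholly below 0 in all 3 groups, and those of Cdk1 cross 0.

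In some arrays most members lay on the same side of their group mean, but not in all. Among the spontaneous arrays 17, 13 and 17 of 33 members lay above it. In the library labelled sorted replicate 3, all 4 spindle and cytokinesis members lay above the group mean, and 4 of 5 kinesins below. Cardiac replicate 2 lay above its group mean in 31 of 33 members and was the highest of all 12 arrays in 10, while cardiac replicate 3 lay below its group mean in 32. The library labelled sorted replicate 3 was the lowest of the 12 arrays in 19 members, and day 0 replicate 1 the highest in 18. Of 59 other G2 and mitosis genes, 55 lay above the group mean in cardiac replicate 2 and 51 below it in replicate 3. In that list sorted replicate 3 was the lowest array in 26 genes and day 0 replicate 1 the highest in 15. Shares over all genes were not counted, so these shifts are not shown to be particular to members. As medians over members relative to the day 0 mean, the arrays stood at 0.11, -0.13 and -0.02 at day 0, at -0.19, -0.18 and -0.16 among the spontaneous arrays, at -0.16, 0.03 and -0.25 among the cardiac arrays, and at -0.23, -0.17 and -0.43 in libraries labelled sorted. The spontaneous arrays were thus nearly equal, while cardiac replicate 2 reached the level of day 0. The median SD of a member was 0.15, 0.06, 0.16 and 0.19 in the 4 groups, where that of all genes was 0.12, 0.10, 0.18 and 0.20. Within the sorted group, Ect2, Anln and Prc1, and also Aurka and Cdc20, were lowest in replicate 1, the library with high Kdr, and highest in replicate 3.

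Other genes of G2 and mitosis, taken from a list of 62 of which 59 were measured, were also mostly short of the test. In spontaneous cells 1 rose and 4 fell, in cardiac cultures 1 rose and 2 fell, and in libraries labelled sorted 0 rose and 4 fell, with medians of -0.09, -0.08 and -0.19. The falls were 6.78%, 3.39% and 6.78% of the list, beside 4.29%, 2.8% and 3.31% of all genes lower and 5.46%, 3.37% and 1.81% higher. The cardiac share was thus near that of all genes. Besides Cep55, Hmmr, a spindle assembly factor, fell in all 3 groups (-0.74, -0.55 and -0.78, adjusted p = 0.00463, 0.0292 and 0.00461). The cardiac fall of Hmmr was lost in 6 of 12 fits with 1 array left out (adjusted p up to 0.117): without day 0 replicate 1 or 2, spontaneous replicate 2 or 3, or cardiac replicate 2 or 3. Pttg1, which encodes securin, the inhibitor of separase, fell by 0.98 in spontaneous cells (adjusted p = 0.00853) and, without the libraries labelled sorted replicates 2 and 3, passed in cardiac cultures too (-0.62, adjusted p = 0.0458; 0.0793 with them). Cdca2 fell by 0.61 in spontaneous cells (adjusted p = 0.0357, lost in 6 of 25 alternatives, up to 0.152 without day 0 replicate 1). In the libraries labelled sorted, Kif18a, a kinesin of chromosome alignment, fell by 0.79 (adjusted p = 0.0307, lost in 6 of 25 alternatives, up to 0.138 without day 0 replicate 1). Kif18a passed in spontaneous cells without the libraries labelled sorted replicates 2 and 3 (-0.63, adjusted p = 0.0199; 0.0557 with them). In the libraries labelled sorted, Sgo1, the protector of centromeric cohesion, fell by 0.66 (adjusted p = 0.0082). Zwint, a kinetochore protein, rose by 0.72 in spontaneous cells (adjusted p = 0.0075) and by 0.53 in cardiac cultures (adjusted p = 0.0436). The cardiac rise of Zwint was lost in 11 of 25 alternatives, with adjusted p up to 0.165 without cardiac replicate 2, and passed in 5 of 12 fits with 1 array left out. Without cardiac replicate 1 Zwint also passed in libraries labelled sorted (0.52, adjusted p = 0.0456; 0.0514 with it). The proliferation marker Mki67 differed by 0.04, 0.10 and 0.04.

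Of 15 regulators that act on G2/M promoters, 0 rose and 2 fell in each comparison with day 0, with list medians of 0.09, 0.14 and 0.12. The falls were 13.3% of the list each time, beside 4.29%, 2.8% and 3.31% of all genes lower and 5.46%, 3.37% and 1.81% higher. Mybl2, which encodes B-MYB, measured 10.42, 10.84 and 10.69 at day 0, 9.27, 9.18 and 9.49 in spontaneous cells, 10.03, 9.25 and 9.36 in cardiac cultures and 8.67, 9.82 and 8.86 in libraries labelled sorted. All day 4 values of Mybl2 lay below day 0, the highest being those of cardiac replicate 1 and sorted replicate 2. It fell in each group, with differences of -1.34 ± 0.27 (SE, 2.52-fold, adjusted p = 0.00969), -1.10 (2.15-fold, adjusted p = 0.0321) and -1.53 (2.89-fold, adjusted p = 0.00617). The cardiac fall of Mybl2 was lost without any 1 day 0 array or without cardiac replicate 2 or 3 (adjusted p = 0.0608 to 0.132). With sorted replicate 1 alone the Mybl2 difference was -1.98 (adjusted p = 0.00265). Lin52, a subunit of the MuvB core, fell in spontaneous cells (-0.60) and in cardiac cultures (-0.53), with adjusted p = 0.0121 and 0.0317 (0.0579 and 0.127 without day 0 replicate 1). These calls were lost in 3 and 8 of 25 alternatives. The pocket protein gene Rbl2 fell by 0.86 in libraries labelled sorted (adjusted p = 0.0462), but passed in only 4 of 12 fits with 1 array left out (up to 0.199 without day 0 replicate 1), and its call was lost in 13 of 25 alternatives. Rbl2 did not pass in sorted replicate 1 alone (-0.60, adjusted p = 0.143) and in that fit passed in spontaneous cells (-0.76, adjusted p = 0.01) and cardiac cultures (-0.58, adjusted p = 0.0439). Foxm1, the transcription factor of late G2, differed by 0.29, 0.24 and 0.24 (adjusted p = 0.31, 0.384 and 0.477). Of 39 measured genes of the G1/S transition and DNA replication, 0 passed in any comparison, with medians of -0.08, -0.13 and -0.12 against day 0. By limma at an unadjusted p under 0.05, 4, 1 and 3 genes of that list were lower (10.9%, 11% and 10.5% of all genes) and 3, 0 and 1 higher (13.1%, 11.4% and 8.85%).

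**Figure D5:**
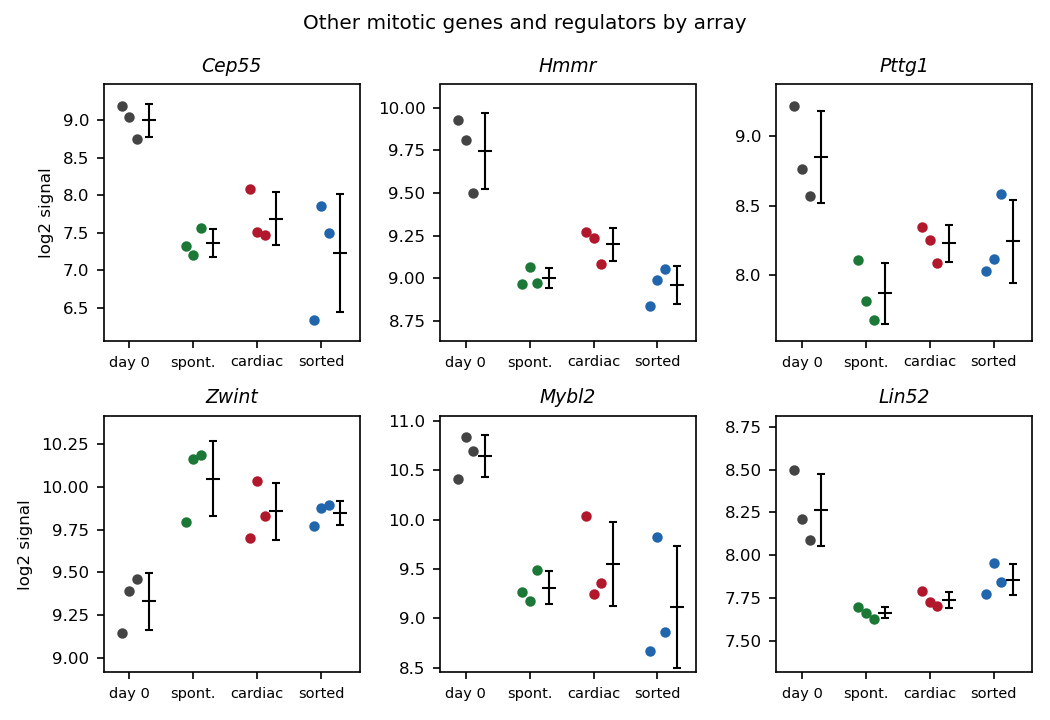
Log2 signal (y axis, with its own range in each panel) on each array for Cep55, Hmmr, Pttg1, Zwint, Mybl2 and Lin52, by group, each point 1 array and each bar the mean ± SD of 3 arrays. The day 4 points of Cep55, Hmmr, Mybl2 and Lin52 lie below all day 0 points, and those of Zwint lie above them.

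Lists of marker genes, for cell types or for cell dissociation, also differed between day 0 and most day 4 arrays. The summed log2 signal of 8 fibroblast and feeder genes was 53.10 to 58.04 at day 0, against 49.74 to 51.29, 48.71 to 49.87 and 48.45 to 50.41 in spontaneous, cardiac and sorted arrays, and 4, 4 and 3 of them fell. That of 8 pluripotency genes was 81.39 to 84.33 at day 0 against 66.17 to 69.96, 66.22 to 70.84 and 59.45 to 71.81, and 6, 5 and 5 of them fell. Of all genes 4.29%, 2.8% and 3.31% fell in the same order. The sum of 8 immediate early genes of cell dissociation was 68.86 to 70.93 at day 0 and 57.59 to 59.73, 59.78 to 60.26 and 64.60 to 69.73 in the day 4 groups. Endoderm genes were highest in cardiac arrays (54.92 to 59.56 over 7 genes, against 42.18 to 43.16 at day 0). The part of these differences in the falls of Ect2, Ccnb2, Anln and the other members was not tested.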

How the data were processed

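Total RNA of 12 samples was labelled and hybridised to 1-colour arrays, per the labels' protocols. The authors deposited log2 signals. Per the submitters' processing notes, these came from RMA in Expression Console 1.3.1. The log base was inferred from RMA and the range of values (1.8747 to 13.8686). RMA equalises the distributions of the arrays, so a shift shared by most genes would not be seen. Arrays give no read depth, and their number limits the precision. Of 35557 probe sets, 21789 had 1 symbol in the platform annotation and 1621 several. The probe set with the highest mean was kept for each of 19938 genes. A single limma 3.58.1 fit under R 4.3.3 took all 12 arrays, with group means, a prior variance with intensity trend, and 8 residual and 5.01 prior degrees of freedom, and the script was tested on simulated data. Tests were two-sided, over 6 comparisons. Members and lists were chosen with earlier results of these data known. Members named with values on every array are up to 4 passing members with the largest difference per comparison and direction, the member with the largest F per role group, and Cdk1, Aurkb, Plk1, Top2a and Cenpa. Cep55 and Mybl2, which are not members, were given on every array too, and had the largest falls from day 0 in their lists. Alternatives were a replicate block, other variance models, array weights, other scalings, filters, a minimum difference and each array left out. Fits without the libraries at odds with their labels were added after seeing the data.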

Additional observations from a re-analysis of the deposited data

How the results depend on the processing

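In spontaneous cells, 4 members passed against day 0. The count was 11 with array weights (1 higher, Plk1, and 10 lower), 7 with quantile normalization repeated, with cyclic loess or with only the 6 arrays compared, and 2 to 5 with 1 array left out. Array weights also took the count over all 19938 genes from 1943 to 5986, so the higher member count is not particular to members. In cardiac cultures, 2 passed, with 4 after quantile normalization and 0 to 3 with 1 array left out, 0 without day 0 replicate 1 and 1 without cardiac replicate 3. In the libraries labelled sorted, 5 passed, with 2 after centring arrays on their medians (Ccnf and Ect2), 1 with only the 6 arrays compared (Ect2) and 1 to 6 with 1 array left out, the 1 without day 0 replicate 1 or 3. The counts were 2 without any 1 spontaneous array or sorted replicate 1, and 3 without day 0 replicate 2 or cardiac replicate 3. Without the libraries labelled sorted replicates 2 and 3 it was 5 (Ccnf, Bub1b, Prc1, Anln and Ect2). With a log2 difference of at least 1 required besides the adjusted p of the main fit, 0 members counted in each of these comparisons. The F test passed for 2 members, for 8 with array weights, 5 with quantile normalization or cyclic loess, 5 without those sorted libraries, also when cardiac replicate 1 was left out too, and 0 to 4 with 1 array left out. The cause of these differences was not tested. The comparisons between day 4 groups gave 0 members under all 26 alternatives. In these fits at most 3 of 19938 genes passed for cardiac against spontaneous arrays. At most 164 passed for sorted against cardiac and 158 for sorted against spontaneous arrays, so the 0 says little about members in particular. None of the 29 named differences that passed changed sign in 25 alternatives. Among members that did not pass against day 0, 10, 13 and 8 changed sign in at least 1 alternative, all with sizes of at most 0.19. Of the 29 named differences, 11 passed in all 25 alternatives: Ect2 and Cep55, Hmmr and Mybl2 in spontaneous and sorted arrays, and Ccnb2, Pttg1 and Zwint in spontaneous cells.

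Counts over all genes moved too. The 1943, 1231 and 1019 genes that passed in spontaneous, cardiac and sorted arrays became 5986, 2004 and 1508 with array weights and 4427, 1065 and 578 with only the arrays compared. They were 689 to 2595, 508 to 1854 and 481 to 1480 with 1 array left out, and 3550, 3054 and 2175 without all 3 libraries at odds with their labels.

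Same-numbered arrays deviated together in some pairs only: the correlation of their deviations from group means ran from -0.38 to 0.31 over 18 pairs, and 6 pairs exceeded 0.1. With the replicate number as a block the counts of members were 4, 2 and 5 against day 0, 0 in each day 4 comparison and 2 in the F test. In the sorted comparison 4 of the 5 were those of the fit without the block: Tpx2 was lost (-0.41, adjusted p = 0.0522) and Espl1 gained (-0.58, adjusted p = 0.0461). Not every array correlated best with its own number. With 3 arrays a group, small changes such as those of most members cannot be told from 0.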
